A study of Homo sapiens with 12 samples.

Results

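RNA of 9 adhesion and homing receptors was followed in the aldehyde dehydrogenase-positive (ALDH+) fraction of 697 (EU3) cells: CXCR4, CCR7, SELPLG, ITGA4, ITGB1, ITGAL, ITGB2, CD44 and CD99. They were taken by gene symbol from the 26231 genes of the deposited normalized table, and their raw read counts by the same gene identifiers. All 9 passed the filter on low counts and were among the 11968 genes tested.

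697 (EU3) is a human B-cell precursor leukaemia line, and ALDH+ cells were sorted for high aldehyde dehydrogenase activity with a fluorescent substrate. SH2 cells carried an shRNA, SH2, that doxycycline turns on together with an eGFP reporter and that targets IGF2BP1. They were sampled untreated and after doxycycline in sets 1 to 4, a set being a sort and treatment of its own (n = 4 libraries per group). Per the labels' protocol, cells were sorted again for the reporter after doxycycline, and nothing states that untreated cells went through that second sort. Control cells, named by the labels only as the control for doxycycline, came from sets 2 and 4, each with and without the drug (n = 2 per group). The labels do not say whether the control cells held the scrambled shRNA of the protocol. All 4 groups shared the parental line, the ALDH+ sort and the transcript-end library kit, which counts a gene mainly near its poly(A) tail.

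The 9 receptors act at successive steps by which blood cells find and hold a tissue. Chemokine receptors are G protein-coupled receptors that sense a ligand gradient, and their signal switches integrins to a state that binds strongly. PSGL-1, the SELPLG product, carries the sugars that selectins grip during rolling. Integrins are pairs of an alpha and a beta chain: ITGA4 with ITGB1 forms VLA-4, the receptor for VCAM1 and fibronectin, and ITGAL with ITGB2 forms LFA-1, the receptor for ICAM proteins. CD44 binds hyaluronan, and CD99 takes part in passage between endothelial cells. In B-precursor leukaemia, CXCR4 is known for retention in bone marrow through its ligand CXCL12, and CCR7 is known for entry into lymphoid organs and the central nervous system.

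The receptors lie on 8 chromosomes of GRCh38 (positions from GENCODE v29). CXCR4 (ENSG00000121966) is on chromosome 2 from 136114349 to 136118165 and ITGA4 (ENSG00000115232) on the same chromosome from 181457202 to 181536187. CCR7 (ENSG00000126353) is on chromosome 17 from 40553769 to 40565472, SELPLG (ENSG00000110876) on chromosome 12 from 108622277 to 108633959, and ITGB1 (ENSG00000150093) on chromosome 10 from 32900319 to 33005792. ITGAL (ENSG00000005844) is on chromosome 16 from 30472658 to 30523185, ITGB2 (ENSG00000160255) on chromosome 21 from 44885953 to 44931989, and CD44 (ENSG00000026508) on chromosome 11 from 35138870 to 35232402. CD99 (ENSG00000002586) is on chromosome X from 2691133 to 2741309, in the pseudoautosomal region that X and Y share. Whether one copy of that region was masked in alignment is not given in the sources used here. All are protein-coding genes, and reads were assigned to the gene as a whole. The strand setting of the counting is not given either, so reads of a receptor and of an antisense gene that overlaps it cannot be told apart. ITGB2-AS1, the antisense gene of ITGB2, had 19 reads over the 8 SH2 and 77 over the 4 control libraries, beside 4976 and 2837 of ITGB2. CD44-AS1 had 0 reads in both.

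RefSeq promoter windows on GRCh38.p14 were at hand for 5 of the 9 receptors. Only CXCR4 had a window ending in 120 bases free of its annotated exons and outside the gene, and that stretch is shown. CXCR4 passed the test as higher in SH2 than in control cells in treated cells only. That call was lost in several alternative runs given below. The stretch chr2:136118166-136118285 on the minus strand, printed 5′ to 3′, ends 16 bases before the RefSeq start site. Capitals mark a TATA box (TATAAA) read on both strands, the copies overlapping.
CXCR4 promoter: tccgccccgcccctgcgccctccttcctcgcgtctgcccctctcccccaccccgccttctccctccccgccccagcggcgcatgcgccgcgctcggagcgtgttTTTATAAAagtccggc
RefSeq gives CXCR4 3 such windows. The 250 bases before the start shown here were 68.0% G and C and held 24 CpG pairs, against medians of 58.0% and 11.0 over 35116 promoters. TATAAA on either strand was found in 10.7% of those promoters. The TATA search was added after this sequence had been read. Searches for CACGTG (MYC E-box), TGTGGT (RUNX), GGAAGT (ETS) and AACTG (MYB), each on both strands, found no match in this window. The other CXCR4 windows were 55.6% and 51.6% G and C with 12 and 8 CpG pairs, and the first of them held a MYB match. These letters occur in 6.34%, 11.0%, 19.5% and 34.1% of promoters, and a match or its absence is a description of the window only.

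Reads in genes numbered 2210291 to 3370952 per library. The treated SH2 library of set 4 stood apart, at -76.1 on the second principal component (17.6% of the variance), with correlations of 0.832 to 0.908 to the remaining SH2 libraries. The doxycycline changes in SH2 cells are given with and without SH2 set 4. IGF2BP1, the shRNA target, was 21.6, 30.4, 39.0 and 32.7 CPM (read counts scaled to a common library total) in untreated SH2 sets 1 to 4 and 6.25, 14.7, 24.9 and 16.1 CPM in treated ones. It was lower with doxycycline in each set, and it was 1.42 and 0 CPM in untreated and 0.957 and 0.380 CPM in treated controls (sets 2 and 4), where 0 reads allow up to 3 counts. All 14 precursor B-cell markers, among them CD79A and PAX5, had reads in each of the 4 groups. Their summed level was 1279 to 3372 CPM in SH2 and 2422 to 3364 CPM in control libraries. Single markers were less even than the sum. DNTT was 1190 CPM in untreated SH2 set 1 and 144.5 CPM in treated SH2 set 4. CD22 was 41.9 to 195.7 CPM in SH2 and 430.7 to 860.7 CPM in control libraries, while CD79B overlapped, at 218.2 to 382.7 and 329.1 to 346.6 CPM.

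Markers of T cells differed between control sets and, for part of the list, between cells. Of 12 T-cell markers 4 had no read in untreated and 3 no read in treated SH2 libraries, among them CD2, CD5 and TRBC1 in both, and each of the 12 had reads in both control groups. The summed level ran from 90.1 to 187 CPM in SH2 libraries. It was 1858 and 2051 CPM in the control libraries of set 2, untreated and treated, and 217 and 132 CPM in those of set 4. TRBC2, a T-cell receptor constant gene, was 1125 and 1277 CPM in control set 2 and 121 and 70.3 CPM in control set 4, against at most 36.9 CPM in SH2 libraries. Not all 12 followed this order: ZAP70, a kinase of T-cell receptor signalling, was 29.4 to 55.5 CPM in SH2 and 4.94 to 17.5 CPM in control libraries, and CD7 was 4.08 to 12.4 CPM and 0 to 5.67 CPM. In control set 4 CD3G was 18.7 and 3.04 CPM, below its SH2 levels of 20.8 to 84.8 CPM. CD3D was there at 10.4 and 8.74 CPM, within its SH2 range of 2.86 to 18.6 CPM, while TRBC2, CD247 and CD3E stayed above all SH2 libraries. T cells are known to carry LFA-1, CCR7 and CD44. Markers of NK cells summed to at most 17.7 CPM, of myeloid cells to at most 20.4 CPM and of erythroid cells and platelets to at most 1.89 CPM. The stromal and endothelial markers summed to 2.27 to 8.70 CPM in SH2 and 14.5 to 44.0 CPM in control libraries, of which COL1A1 and PECAM1 made nearly all, with COL3A1 at 0 in all controls. RNA was taken from whole cell pools, so fewer cells of a type and less RNA per cell cannot be told apart.

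**Figure D1:**
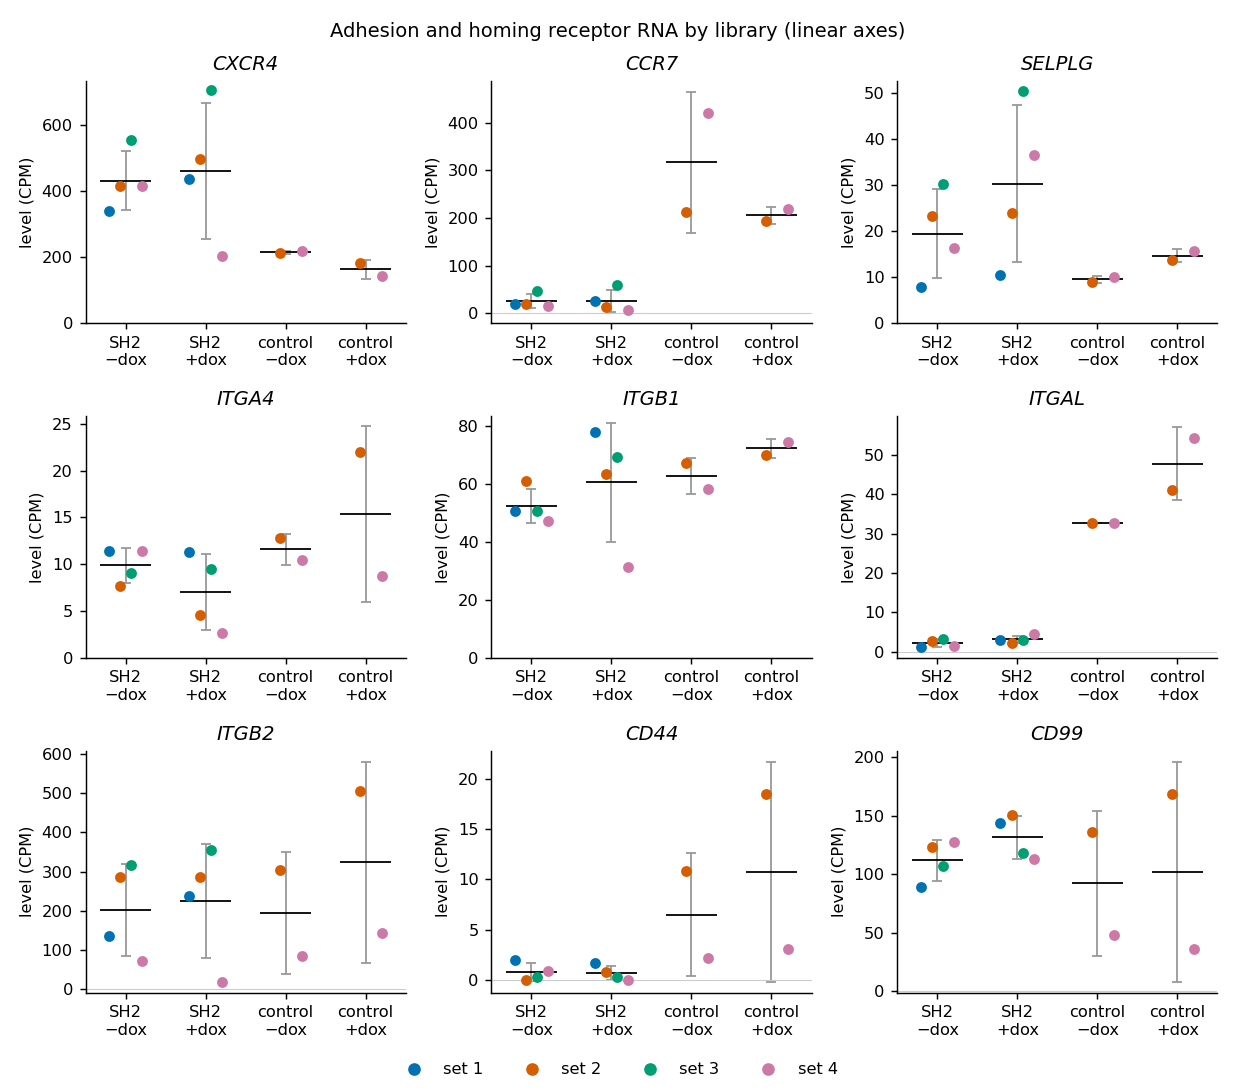
Level of each receptor in every library, in CPM on linear axes; points are libraries coloured by set, bars are group means and whiskers 1 SD (n = 4 SH2 and n = 2 control per group). CCR7 and ITGAL lie low in all 8 SH2 libraries, CXCR4 is lowest in the treated controls and ITGB2 is lowest in set 4 in each group.

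SH2 cells held less CCR7 and ITGAL RNA than control cells, without and with doxycycline. In untreated cells 2 of the 9 receptors passed the test, both lower in SH2, against 7.84% of all genes tested in either direction, 4.9% lower and 2.94% higher. In treated cells 4 of 9 passed, against 11.1% of all genes. Of these CCR7, ITGAL and CD44 were lower (6.48% of all genes) and CXCR4 higher (4.6%). CD44 entered the test only through control libraries of set 2, where it was high, so its call is not independent of that selection. The median log2 fold change of the 9, SH2 minus control, was -0.23 in untreated and -0.53 in treated cells, beside 0.03 and 0.04 over all genes. Tests were edgeR quasi-likelihood tests with Benjamini-Hochberg adjustment over all genes and a threshold of 0.05. Fold changes below are log2 with their standard error (SE), and all comparisons of untreated or treated cells are 4 SH2 against 2 control libraries. The replicates are sets, and the labels name no further SH2 or control population. The construct and other differences between the populations therefore cannot be told apart.

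The same 4 receptors did not overlap between the groups, in untreated and in treated cells. In each comparison 1 was higher and 3 were lower in SH2. Of all genes 32.9% did so in untreated cells (15.5% higher, 17.4% lower) and 31.9% in treated cells (15.4% higher, 16.6% lower). Across all 8 SH2 and 4 control libraries, CCR7, CD44 and ITGAL were lower without overlap, as were 8.59% of all genes, and no receptor was higher without overlap, as 6.99% of all genes were. For CD44 the closest libraries had 6 reads (2.16 CPM) in control and 5 reads (2.04 CPM) in SH2 cells, so its separation is narrow. CD44 also passed the filter on low counts only through control libraries, so its place in these counts is not independent of that selection.

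CCR7, the receptor for CCL19 and CCL21, was 20.4, 18.9, 46.7 and 14.4 CPM in untreated SH2 sets 1 to 4 and 24.6, 13.2, 59.0 and 7.04 CPM in treated ones. Control sets 2 and 4 had 213 and 421 CPM untreated and 193 and 218 CPM treated. The lowest control library was thus above the highest SH2 library, that of treated set 3. The group means were 25.1 ± 14.6 CPM (SD, n = 4) in untreated SH2 and 317 ± 147 CPM (SD, n = 2) in untreated control cells. CCR7 was 12.6-fold lower in untreated SH2 cells (-3.66 ± 0.63, edgeR adjusted p = 0.00264) and 7.88-fold lower in treated ones (-2.98 ± 0.63, adjusted p = 0.00744). Within set 2 the differences were -3.42 untreated and -3.76 treated, and within set 4 they were -4.77 and -4.76. CCR7 passed under every alternative run. Its untreated control level was 213 CPM in set 2 and 421 CPM in set 4, where T-cell markers summed to 1858 and 217 CPM. The part of T-cell RNA in the CCR7 difference was not tested. In order of group means, untreated controls were followed by treated controls, treated SH2 and untreated SH2 cells, and within each cell type the treated and untreated libraries overlapped.

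CXCR4, the receptor for CXCL12, went the other way. Its level was 341, 415, 554 and 416 CPM in untreated SH2 sets 1 to 4 and 437, 498, 705 and 204 CPM in treated ones. It was 212 and 217 CPM in untreated and 183 and 142 CPM in treated control sets 2 and 4. Each treated SH2 library lay above both treated controls, although the treated SH2 library of set 4 lay below both untreated controls. CXCR4 was 2.84-fold higher in treated SH2 cells (1.50 ± 0.42, edgeR adjusted p = 0.032). In untreated cells the difference was 1.01 ± 0.41 and missed the threshold (adjusted p = 0.168, unadjusted p = 0.0259), where 4 of 9 receptors and 20.3% of all genes had an unadjusted p under 0.05.

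The treated CXCR4 call rested on several libraries. It did not hold when treated SH2 set 2 was left out (1.47, edgeR adjusted p = 0.065) or treated SH2 set 3 (1.23, adjusted p = 0.0705). It was also lost without the treated control of set 2 (1.69, adjusted p = 0.121) or set 4 (1.33, adjusted p = 0.249), with the treated groups fitted alone (1.49, adjusted p = 0.115) and with sets 2 and 4 only (1.12, adjusted p = 0.168). Within sets 2 and 4 CXCR4 was higher in SH2 by 0.97 and 0.93 log2 units untreated and by 1.44 and 0.52 treated.

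The ratio of CCR7 to CXCR4 reads within a library does not depend on how libraries are scaled. It was 0.0266 to 0.0844 in the 8 SH2 libraries. In control sets 2 and 4 it was 1.0 and 1.94 untreated and 1.05 and 1.53 treated. The SH2 and control libraries did not overlap in this ratio. They did not overlap in CCR7 alone either, so the ratio restates that difference and is not a separate result.

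**Figure D2:**
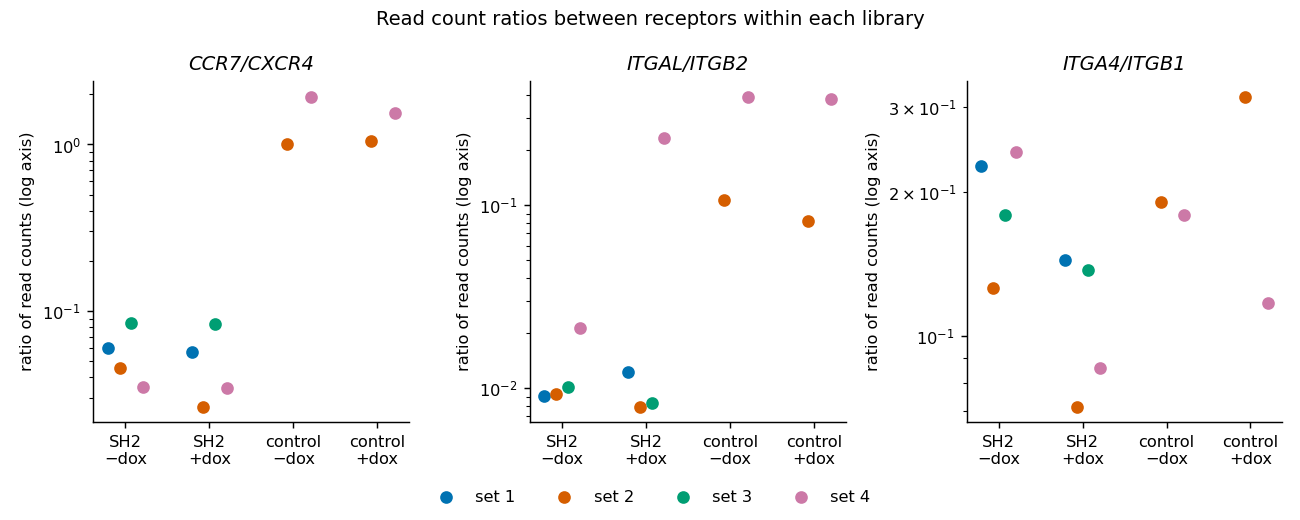
Ratio of read counts of receptor pairs within each library, on log axes, by group; points are libraries coloured by set. CCR7 to CXCR4 is at most 0.0844 in SH2 and at least 1.0 in control libraries, and ITGAL to ITGB2 in the treated SH2 library of set 4 (0.232) lies among the controls.

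SELPLG, which encodes the selectin ligand PSGL-1, was 7.75, 23.3, 30.3 and 16.2 CPM in untreated and 10.4, 23.8, 50.5 and 36.5 CPM in treated SH2 sets 1 to 4. It was 8.97 and 10.1 CPM in untreated and 13.7 and 15.6 CPM in treated control sets 2 and 4. SH2 set 1 lay at or below the controls and the other SH2 sets lay above them, so the groups overlapped. The differences between cells were 1.03 ± 0.60 untreated (edgeR adjusted p = 0.388) and 1.05 ± 0.58 treated (adjusted p = 0.28). A block for the set left the treated difference at 1.04 and made it pass (adjusted p = 0.0433).

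The alpha chain of LFA-1 differed between cells, and a difference in its beta chain was not detected. ITGAL was 1.22, 2.66, 3.22 and 1.50 CPM in untreated and 2.92, 2.27, 2.95 and 4.36 CPM in treated SH2 sets 1 to 4. Control sets 2 and 4 had 32.6 and 32.7 CPM untreated and 41.1 and 54.4 CPM treated. Each control library was above every SH2 library. The untreated SH2 level rested on 27 reads in 4 libraries and the untreated control level on 160 reads in 2. ITGAL was 14.7-fold lower in untreated SH2 cells (-3.88 ± 0.39, edgeR adjusted p = 3.84e-05) and 15.0-fold lower in treated ones (-3.91 ± 0.38, adjusted p = 2.45e-05). These were the smallest p-values of the 9 receptors in both comparisons, and ITGAL passed under every alternative run. In the untreated controls of sets 2 and 4, ITGAL was 32.6 and 32.7 CPM and the T-cell markers summed to 1858 and 217 CPM. The part of T-cell RNA in the ITGAL difference was not tested.

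ITGB2, the beta chain that LFA-1 shares with other leukocyte integrins, was 135, 285, 316 and 70.9 CPM in untreated and 237, 286, 355 and 18.8 CPM in treated SH2 sets 1 to 4. It was 305 and 83.5 CPM in untreated and 505 and 143 CPM in treated control sets 2 and 4. The set 4 library was the lowest of its group in all 4 groups, which held for 6.06% of all genes tested. The differences between cells were 0.06 ± 0.87 untreated (edgeR adjusted p = 0.985) and -0.53 ± 0.85 treated (adjusted p = 0.751). The 95% interval of the untreated difference ran from -1.82 to 1.93, so a difference of 3-fold in either direction is inside it. The control libraries of set 2 were high in ITGB2 and in T-cell markers together, and the part of those markers in the result was not tested.

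Reads of ITGAL per read of ITGB2 were 0.00792 to 0.0212 in 7 of the 8 SH2 libraries and 0.232 in the treated SH2 library of set 4, where ITGB2 was lowest. The ratio in control sets 2 and 4 was 0.107 and 0.392 untreated and 0.0814 and 0.381 treated. The 7 SH2 libraries lay below all controls and the remaining one lay among them.

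VLA-4 chains did not pass in any comparison. ITGA4, the alpha chain, was 11.4, 7.67, 9.02 and 11.4 CPM in untreated and 11.3, 4.53, 9.51 and 2.68 CPM in treated SH2 sets 1 to 4. It was 12.8 and 10.4 CPM in untreated and 22.0 and 8.74 CPM in treated control sets 2 and 4, so the groups overlapped. The differences were -0.23 ± 0.53 untreated (edgeR adjusted p = 0.876) and -1.14 ± 0.52 treated (adjusted p = 0.182, unadjusted p = 0.0434). Of the 9 receptors 5 had an unadjusted p under 0.05 in treated cells, beside 25% of all genes. In sets 2 and 4 the treated difference was -2.04 and -1.39.

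ITGB1, the beta chain that VLA-4 shares with many integrins, varied least of the 9 receptors over the 12 libraries, 2.50-fold from lowest to highest. It was 50.6, 60.8, 50.6 and 47.1 CPM in untreated and 78.0, 63.5, 69.2 and 31.2 CPM in treated SH2 sets 1 to 4. It was 67.1 and 58.3 CPM in untreated and 69.8 and 74.5 CPM in treated control sets 2 and 4. The treated SH2 library of set 4 was the lowest and the treated one of set 1 the highest. The differences were -0.26 ± 0.32 untreated, with a 95% interval from -0.94 to 0.42, and -0.26 ± 0.32 treated (edgeR adjusted p = 0.733 and 0.67). ITGA4 reads per ITGB1 read were 0.0714 to 0.242 in SH2 and 0.117 to 0.315 in control libraries, which overlap.

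CD44, the hyaluronan receptor, was close to the limit of detection in SH2 cells. It was 2.04, 0, 0.322 and 0.901 CPM in untreated and 1.67, 0.756, 0.328 and 0 CPM in treated SH2 sets 1 to 4, from 9 and 7 reads in all. The 2 libraries without a read allow a level of up to 0.885 CPM (untreated set 2) and 1.01 CPM (treated set 4). In control sets 2 and 4 it was 10.9 and 2.16 CPM untreated and 18.5 and 3.04 CPM treated, from 29 and 66 reads. All controls lay above all SH2 libraries, but control set 4 did so narrowly, at 6 and 8 reads against up to 5 in an SH2 library. Control set 2 lay well above control set 4. CD44 was lower in treated SH2 cells (-3.97 ± 1.07, edgeR adjusted p = 0.0285). Only the control libraries of set 2, at 23 and 58 reads, reached the filter's minimum count of 10. CD44 was thus tested through libraries where it was high, and its tests between cells are not independent of that selection. In untreated cells -2.99 ± 1.08 did not pass (adjusted p = 0.12), although a block for the set made it pass (-3.48, adjusted p = 0.0399) and with no filter on low counts (-2.93, adjusted p = 0.00625).

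The treated CD44 call was lost without the treated control of set 2 (-2.15, edgeR adjusted p = 0.45), where T-cell markers summed to 2051 CPM. It was also lost without treated SH2 set 2 (-4.04, adjusted p = 0.0663) or set 3 (-3.74, adjusted p = 0.078), and with SH2 set 4 left out entirely (-3.55, adjusted p = 0.0576). With sets 2 and 4 only it had an adjusted p of 0.0986, and limma-trend on the deposited table gave 0.0534. The part of T-cell RNA in the CD44 difference was not tested.

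CD99, a small membrane glycoprotein, was 88.9, 123, 107 and 127 CPM in untreated and 144, 150.4, 118 and 113 CPM in treated SH2 sets 1 to 4. In control sets 2 and 4 it was 136 and 48.2 CPM untreated and 168 and 35.7 CPM treated. The controls of set 2 lay within or above the SH2 range and those of set 4 below it, so the control groups spanned the SH2 groups. The differences were 0.28 ± 0.50 untreated and 0.36 ± 0.50 treated (edgeR adjusted p = 0.829 and 0.705). Within set 4 CD99 was higher in SH2 by 1.38 untreated and 1.63 treated, and within set 2 the differences were -0.14 and -0.16. Control set 2 was the set high in T-cell markers, whose part was not tested.

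**Figure D3:**
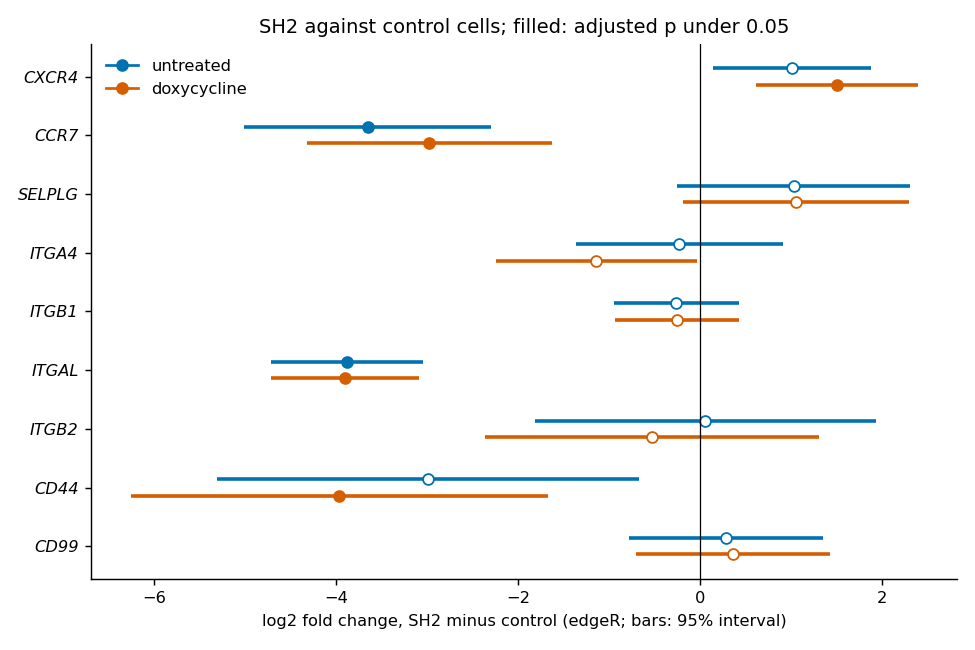
Log2 fold change of each receptor, SH2 minus control, with its 95% interval from edgeR, in untreated (blue) and doxycycline-treated (orange) cells; filled points have an adjusted p under 0.05. ITGAL and CCR7 are filled in both comparisons, CD44 (lower) and CXCR4 (higher) in treated cells alone; the change between treatments itself is the interaction, which passed for none of the 9.

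Doxycycline changed none of the 9 receptors detectably. In SH2 cells 0 of 9 passed, beside 0.0167% of all genes (edgeR), and 0 of 9 had an unadjusted p under 0.05, beside 4.88% of all genes. DESeq2's Wald test called 0 of the 8 to which it gave an adjusted p, CD44 being the one without. In control cells 0 of 9 passed (0% of all genes) and 0 of 9 had an unadjusted p under 0.05 (0.685%). For the interaction, the response of SH2 minus that of control cells, the counts were 0 of 9 (0%) and 0 of 9 (0.969%). DESeq2 called 0 of 9 in these comparisons too. The 95% intervals of the SH2 changes were narrowest for ITGB1 (-0.35 to 0.77) and widest for CD44 (-2.68 to 2.24).

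SELPLG was the receptor with the smallest p for doxycycline in SH2 cells, and the one that was higher in 4 of 4 sets, a pattern that 10.6% of all genes showed. Its set values, treated minus untreated on the log2 scale, were 0.38, 0.03, 0.72 and 1.12 in sets 1 to 4. The change was 0.64 ± 0.45 (edgeR adjusted p = 0.983), with a 95% interval from -0.32 to 1.60. It ran from 0.28 without treated set 3 to 0.96 without untreated set 3, and it was 0.39 without untreated set 1 and 0.46 without both libraries of set 4. With a block for the set it was 0.60 ± 0.24 (adjusted p = 0.489), and 1 of the 9 receptors then had an unadjusted p under 0.05, as did 1098 of 11968 genes. In control cells SELPLG was 0.56 and 0.58 higher in sets 2 and 4, for a change of 0.61 ± 0.67 (adjusted p = 1). The interaction was 0.03 ± 0.84 (adjusted p = 1).

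The chemokine receptors moved differently between sets. CXCR4 had 0.36, 0.26, 0.35 and -1.02 in SH2 sets 1 to 4, and its change was 0.10 ± 0.32 (edgeR adjusted p = 0.993, 95% interval -0.58 to 0.77). Without both SH2 libraries of set 4 the CXCR4 change was 0.32. CCR7 had 0.26, -0.48, 0.33 and -0.93 (0.05 ± 0.55, adjusted p = 1), and its change was 0.18 without SH2 set 4. CXCR4 had -0.21 and -0.61 and CCR7 -0.14 and -0.94 in control sets 2 and 4.

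Among integrins in SH2 cells, set 4 had the lowest value for 3 of the 4 chains. ITGB2 had 0.81, 0.01, 0.17 and -1.86 in sets 1 to 4 (0.15 ± 0.71, edgeR adjusted p = 1). ITGB1 had 0.61, 0.06, 0.44 and -0.58 (0.21 ± 0.26, adjusted p = 0.986). ITGA4 had -0.02, -0.64, 0.07 and -1.74 (-0.50 ± 0.44, adjusted p = 0.983). ITGAL, at 27 and 35 reads in the untreated and treated groups, had 0.80, -0.16, -0.09 and 1.08 (0.52 ± 0.38, adjusted p = 0.983). Without SH2 set 4 the changes were 0.25 for ITGB2, 0.38 for ITGB1, -0.15 for ITGA4 and 0.16 for ITGAL, and none of them passed. In control cells both sets were higher for ITGB2 (0.73 and 0.76), ITGAL (0.33 and 0.71) and ITGB1 (0.06 and 0.35), and ITGA4 had 0.74 and -0.23.

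CD99 had 0.69, 0.28, 0.14 and -0.17 in SH2 sets 1 to 4 (0.23 ± 0.40, edgeR adjusted p = 0.986). CD44, at 9 and 7 reads, had -0.18, 0.78, 0.01 and -0.89 (-0.22 ± 1.15, adjusted p = 1) and gives little information at this depth. Without SH2 set 4 the changes were 0.37 for CD99 and 0.30 for CD44. In control cells 7 of the 9 receptors moved the same way in both sets, as did 48.1% of all genes, with CXCR4 and CCR7 lower (23.1% of all genes) and 5 higher (25%). The median change was 0.15 in SH2 and 0.42 in control cells, beside 0.03 and 0.01 over all genes.

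**Figure D4:**
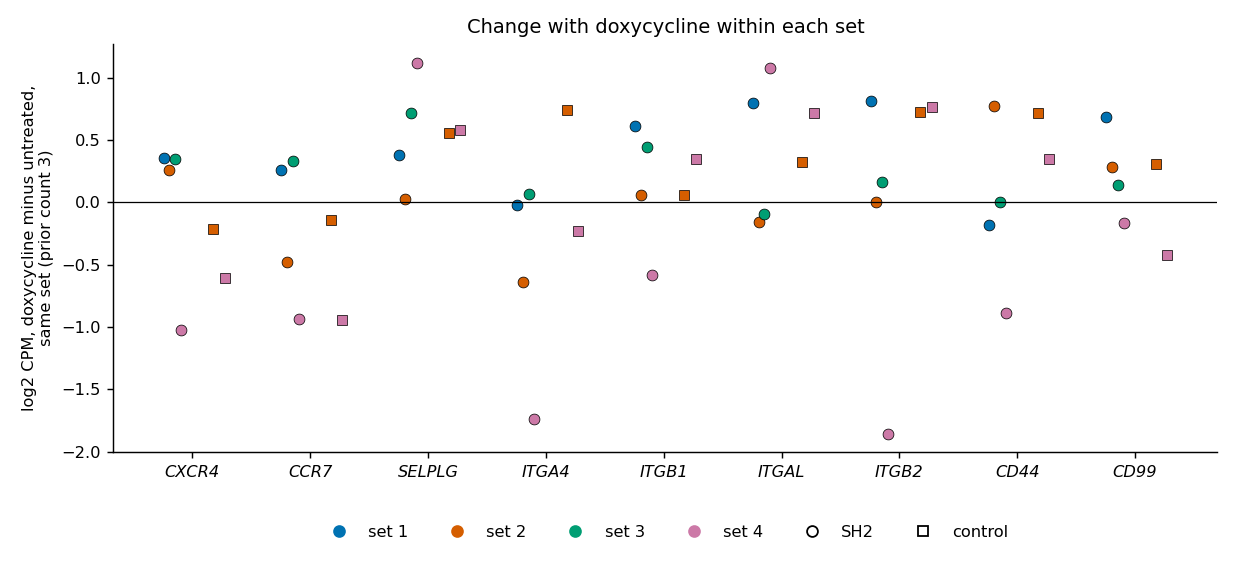
Change of each receptor with doxycycline within a set, as the difference in log2 CPM (prior count 3); circles are SH2 and squares control cells, coloured by set. SELPLG is the receptor at or above 0 in all 4 SH2 sets (0.03 to 1.12), and in set 4 CXCR4, ITGA4 and ITGB2 of SH2 cells lie at -1.02, -1.74 and -1.86.

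The likeness of other genes to 2 receptors was measured over the 12 libraries by Pearson r of log2 CPM, among the 8686 genes whose log2 CPM averaged 3 or more. Closest to ITGAL, the receptor with the smallest p between cells, were DUSP22, a phosphatase (r = 0.987), FGR, a kinase of the SRC family (r = 0.986), and COTL1, an actin-binding protein (r = 0.978). Their Spearman coefficients were 0.944, 0.853 and 0.860, and 128 genes had an r over 0.9 with ITGAL. Closest to SELPLG were SLC25A37, a mitochondrial iron importer (r = 0.950), BTG1, an antiproliferative factor (r = 0.937), and DHX38, a splicing helicase (r = 0.936). Their Spearman coefficients were 0.965, 0.874 and 0.846, and 11 genes had an r over 0.9 with SELPLG. These values are descriptions: the points share 2 kinds of cells, 4 sets and the same libraries.

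Other genes of the pathway were read from 8 lists. None of their tested genes passed with doxycycline in SH2 cells, in control cells or in the interaction (edgeR adjusted p), and 0 to 3 genes per list had an unadjusted p under 0.05. Between untreated SH2 and control cells, of 11 other chemokine and migration receptors tested 6 were lower and 1 higher, with a median log2 fold change of -1.10 beside 0.03 over all genes. The shares over all genes, against which this and the following lists stand, were 4.9% lower and 2.94% higher in untreated and 6.48% lower and 4.6% higher in treated cells. CXCR5, the receptor for the follicle chemokine CXCL13, was 2.25 ± 3.24 CPM (SD, n = 4) in SH2 and 82.1 ± 26.1 CPM (SD, n = 2) in control cells (-5.15 ± 0.80, edgeR adjusted p = 0.00119). ACKR3, a scavenging receptor for CXCL12, was 1.94 ± 1.35 and 29.4 ± 13.1 CPM (-3.85 ± 0.60, adjusted p = 0.00109). GPR183, an oxysterol receptor of B cells, had 1 read in 4 SH2 libraries and 39 in 2 controls, a ratio of 97.8 (95% counting interval 16.5 to 3959) with an adjusted p of 0.00463, which became 0.0545 with sets 2 and 4 only. In treated cells 6 of the 11 were again lower and 1 higher. The filter on low counts admits a gene that is high in only 1 kind of cell. GPR183, at 1 and 0 reads in untreated and treated SH2 cells, passed it through control libraries. Its test, and the counts of this and the following lists, are therefore not independent of that selection.

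Of 2 chemokine ligands tested, CCL22 was lower in SH2 cells (edgeR adjusted p = 2.38e-07). It had 1 read in 4 untreated SH2 libraries and 712 in 2 controls, a ratio of 1785 (95% counting interval 319 to 70590). Of 30 genes of chemokine receptor signalling and desensitization, 3 were lower in untreated and 5 in treated SH2 cells, and 0 were higher. RGS13, a GTPase activator of B cells that ends G protein signals, had 2 and 72 reads, a ratio of 90.2 (interval 24.1 to 759, adjusted p = 6.55e-04). CCL22 and RGS13 passed the filter on low counts through control libraries, so their tests between cells are not independent of that selection. RAC2, a GTPase of blood cells, was 89.3 ± 20.5 CPM in SH2 and 240 ± 35.1 CPM in control cells (-1.42 ± 0.29, adjusted p = 0.00694). RGS19 had -1.43 ± 0.39 (adjusted p = 0.0387).

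Both RAC2 and RGS19 kept their direction while their calls depended on single libraries. RAC2 lost its call without the untreated control of set 2 (-1.27, edgeR adjusted p = 0.106) and with sets 2 and 4 only (-1.32, adjusted p = 0.123). RGS19 lost it without any 1 of the untreated libraries other than that of SH2 set 4 (-1.59 to -1.25, adjusted p = 0.0831 to 0.244), with sets 2 and 4 only (-1.12, adjusted p = 0.315) and with the compared groups alone (-1.44, adjusted p = 0.0539).

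Among 8 other integrin subunits tested, ITGB7, which pairs with ITGA4 in the gut homing integrin, was the 1 that passed in untreated cells. It was 2.55 ± 1.65 CPM in SH2 and 29.4 ± 3.88 CPM in control cells (-3.47 ± 0.55, edgeR adjusted p = 0.00126). In treated cells 1 of the 8 was lower and 1 higher. Of 29 genes of integrin activation and linkage to actin, 1 was lower and 1 higher in untreated cells, 2 and 1 in treated cells, and the median was -0.25. FYB, an adaptor of integrin activation in T cells, had 0 reads in untreated SH2 and 114 in control libraries, at least 95.2-fold lower in SH2 taking 3 counts for the whole group as its floor (adjusted p = 0.0259). Its control level was 26.1 ± 29.2 CPM, and the adjusted p was over the threshold without untreated SH2 set 2 (0.0544) or set 4 (0.0524), without the untreated control of set 2 (0.187), with SH2 set 4 left out entirely (0.0686), with sets 2 and 4 only (0.113) and by DESeq2 (0.0676). SKAP1, its partner adaptor, went the other way, with 97 reads in untreated SH2 and 0 in control libraries, at least 12.9-fold higher in SH2 (adjusted p = 0.00361). FYB passed the filter on low counts through control libraries and SKAP1 through SH2 libraries. Neither test between cells is independent of that selection.

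Of 9 genes of hyaluronan and the linkage of CD44 to actin, 1 was higher and none lower in untreated SH2 cells, and 1 and 1 in treated ones. RDX, radixin, was 95.6 ± 13.8 CPM in SH2 and 23.2 ± 4.80 CPM in control cells (2.04 ± 0.35, edgeR adjusted p = 0.00246), and without the untreated control of set 2 its adjusted p was 0.0641. Of 16 selectins and enzymes that build selectin ligands, 1 was lower in untreated SH2 cells. That was CHST4, a sulphotransferase, with 0 reads in SH2 and 19 in control libraries, at least 15.9-fold lower (adjusted p = 0.0306). Its call was lost without any 1 of the untreated libraries other than that of SH2 set 1 (adjusted p = 0.056 to 0.20) and with sets 2 and 4 only (0.112). CHST4 passed the filter on low counts through control libraries, so its test between cells is not independent of that selection. In treated cells 1 of the 16 was lower and 1 higher.

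Of 26 adhesion molecules of the immunoglobulin superfamily, the tetraspanins and the CD99 family, 7 were lower and 3 higher in untreated SH2 cells, beside 4.9% lower and 2.94% higher over all genes, and 8 and 3 in treated ones, beside 6.48% and 4.6%. The median was -0.45 in untreated cells. CD82 and CD37, tetraspanins that organise integrins in the membrane, were 37.6 ± 7.12 and 34.6 ± 15.2 CPM in SH2 against 386 ± 161 and 357 ± 34.9 CPM in control cells (-3.36 ± 0.35 and -3.36 ± 0.40, edgeR adjusted p = 4.48e-05 and 1.42e-04). ICAM3, a ligand of LFA-1 on leukocytes, was higher in SH2 cells, at 79.2 ± 19.3 against 1.08 ± 1.53 CPM (6.01 ± 0.67, adjusted p = 1.19e-04). In treated cells ICAM3 had 1101 reads in 4 SH2 libraries and 0 in 2 controls, at least 191-fold higher. ITGAL was thus lower and the gene of one of its ligands higher in the same SH2 libraries. ICAM3 passed the filter on low counts through SH2 libraries, so its tests between cells are not independent of that selection.

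**Figure D5:**
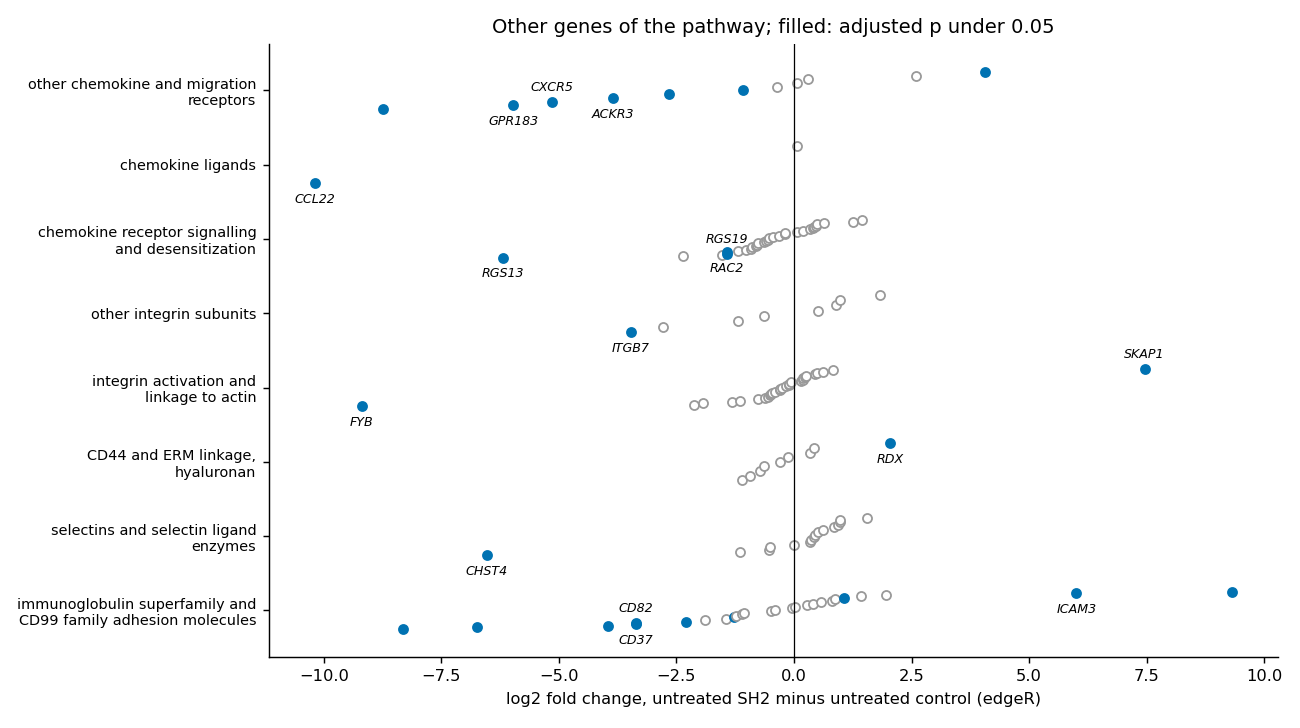
Log2 fold change of every tested gene of 8 lists, untreated SH2 minus untreated control cells, one list per row with genes spread vertically by rank; filled points have an edgeR adjusted p under 0.05 and named points are those in the text. In the migration receptors 6 of 7 filled points lie below 0, and ICAM3 and SKAP1 lie at 6.01 and 7.46, the latter a fitted value against 0 control reads.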

How the data were processed

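RNA of 12 libraries was analysed. Whole read counts per gene were deposited by the authors, made per the submitters' processing notes with FastQC, STAR and HTSeq on hg38 (GRCh38), with DESeq2 also named. Their versions and the gene annotation are unstated in the sources used here. The 5 HTSeq summary lines were kept out of library sizes; reads not aligned uniquely took 42.2% to 63.8% of a library. The authors also deposited a normalized signal table, each column the counts times a constant (100% of values whole after division, tolerance 0.01), whose reads equalled the counts and gave 2 calls with doxycycline in SH2 cells, as the counts did.

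Counts were fitted in R 4.3.3 with edgeR 4.0.16 (filterByExpr minimum count 10, TMM, robust quasi-likelihood, 4 groups, no set term; biological coefficient of variation 0.376). CPM use TMM-scaled library sizes. The SE was derived from the test, as the absolute log2 fold change over the square root of its F statistic. The 95% intervals of fold changes were built from this SE, which is imprecise where F is near 0. Floors are 3 counts; counting intervals (95%) cover counting error only. Alternatives used DESeq2 1.42.0 and limma 3.58.1 (pseudocount 1). The fit was also run on simulated data drawn from its own estimates of spread. That simulation held no set effects, so it says nothing about them.

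The receptors and gene lists were chosen with earlier results of these data known. Named genes were the 9 receptors, IGF2BP1, up to 3 genes per list with the smallest p among those past the threshold in untreated cells, any list gene past it with doxycycline, and the 3 genes most like 2 receptors. Per the design text, each set had its own sort and treatment. Replicates differed beyond sampling noise (chi-square per degree of freedom 8.64 to 50.4). The set numbers are those of the labels. Deviations of same-set SH2 libraries correlated at 0.188 to 0.663, all above the limit of 0.1, and those of different sets at -0.548 to 0.272. Treated set 2 correlated more with untreated set 1 (0.272) than with untreated set 2 (0.188), so its pairing is less clear. In control libraries the same-set value was 0.499, and with n = 2 per group the other-set value mirrors it. The samples were taken as paired by their labels. The set entered as a block in an alternative only, not in the reported values. Some marker genes are not reported here.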

Additional observations from a re-analysis of the deposited data

How the results depend on the processing

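CCR7 and ITGAL kept their direction and their calls, untreated and treated, under all alternatives. With doxycycline and for the interaction, 0 receptors passed under any alternative that tested them (in SH2 cells 8 by DESeq2 and 7 with the compared groups alone). Of 4 receptors past the threshold in treated cells, CCR7 and ITGAL remained past it (2) with the compared groups alone, where CD44 fell under the filter and was not tested, and with sets 2 and 4 only, and 2 to 4 with 1 library left out.

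Counts over all genes moved more. With doxycycline in SH2 cells 2 genes passed, against 47 with no filter on low counts, 6 with the replicate block, 17 by DESeq2, 1 without both SH2 libraries of set 4, 0 with the compared groups alone and 0 to 3 with 1 library left out. In control cells 0 passed, and 3 with no filter (82 at an unadjusted p under 0.05). For the interaction 0 passed, against 3 with no filter, 1 with the block and 3 by DESeq2 (116 unadjusted). Between untreated cells 938 passed, against 1449 with no filter, 1505 with the block, 413 with sets 2 and 4 only and 342 to 853 with 1 library left out, the lowest without the control of set 2 (342) or set 4 (490). Between treated cells 1326 passed, against 2171 with the block, 789 with the compared groups alone, 652 with sets 2 and 4 only and 648 to 1462 with 1 library left out, the lowest without the control of set 4 (648) or set 2 (737). For the receptors the block changed no call but those of CD44 (untreated) and SELPLG (treated).

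Directions changed only among log2 fold changes that did not pass, and the cause was not tested. With doxycycline in SH2 cells, CCR7 became -0.16 with the block and -0.22 by limma, ITGB2 -0.10 and -0.22, CXCR4 -0.0096 by limma, and CD44 0.30 without both SH2 libraries of set 4. With 1 library left out they ran from -0.76 to 0.56 (CCR7), -0.16 to 0.54 (ITGB2), -0.19 to 0.34 (CXCR4) and -1.04 to 0.62 (CD44). Without a change of direction they ran from -0.81 to -0.23 (ITGA4), 0.06 to 0.42 (ITGB1), 0.31 to 0.78 (ITGAL) and 0.14 to 0.30 (CD99). In control cells CD99 became -0.068 by limma and ran from -1.36 to 1.09, ITGA4 from -0.40 to 0.93, ITGB2 from -0.44 to 1.96 and CD44 from -1.07 to 2.31. For the interaction SELPLG became -0.026 with no filter, -0.015 with the block, -0.010 by limma and -0.15 without both SH2 libraries of set 4, and ITGB1 became -0.044, -0.061 and -0.058 under the first 3 of these. With sets 2 and 4 only, the interaction was -0.39 for ITGB1, 0.13 for ITGAL (0.016 by limma), -0.089 for CCR7 and -0.075 for CD99. With 1 library left out the interaction ran from -0.33 to 0.36 (SELPLG), -0.14 to 0.22 (ITGB1), -0.23 to 0.25 (ITGAL), -0.13 to 1.20 (CCR7), -0.86 to 1.59 (CD99), -1.81 to 0.59 (ITGB2) and -2.53 to 0.84 (CD44). Between untreated cells ITGB2 became -0.44 with the block and -0.12 with sets 2 and 4 only, and ran from -0.59 to 1.27; CD99 ran from -0.28 to 1.21. Between treated cells ITGB2 ran from -1.18 to 0.65 and CD99 from -0.37 to 1.87. Where leaving out 1 library left a control group with 1, that library is assumed to vary like the other groups. Depth limits CD44 and ITGAL in SH2 cells, at 16 and 62 reads in 8 libraries.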
